A study of Arabidopsis thaliana with 4 samples.

Results

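DFR, UF3GT and 5GT encode enzymes that make or decorate anthocyanins, the red and purple pigments that Arabidopsis shoots accumulate in strong light, cold or sugar excess. They were picked by name, with earlier results of these data known. The annotation of the array pairs each with 1 probe set, the group of probes that reports 1 transcript. DFR, UF3GT and 5GT are thus 3 of the 13356 genes that the annotation used names alone on a probe set. DFR (AT5G42800) and UF3GT (AT5G54060) stand in the annotation under those symbols. 5GT stands there only as the locus AT4G14090, and the name 5GT was joined to it by that locus.

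Shoots of plants that overexpress bHLH122, which encodes a bHLH (basic helix-loop-helix) factor studied in drought and osmotic stress, were set against shoots of wild-type Col-0, the background of both groups. There were 2 arrays of overexpressor RNA and 2 of wild-type RNA. Seeds were stratified for 96 h, and plants spent 1 week on MS medium and 2 weeks in soil without a further treatment. The promoter of the transgene is not given in the sources used here. The sources of the overexpressor arrays name them as independent lines, yet line number 18 stands in both titles, so the group may hold 1 line or several. Separate cultures are not recorded for the wild-type arrays, so the p-values speak for the spread among these 4 samples alone, and that spread may be technical.

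Anthocyanins branch off from flavonoid synthesis, in which chalcone is turned stepwise into dihydroflavonols. Dihydroflavonol 4-reductase, the product of DFR (also TT3), reduces dihydroflavonols to leucoanthocyanidins and so draws them away from flavonols. Leucoanthocyanidin dioxygenase then makes the coloured anthocyanidins, which sugar and acyl transfer stabilise for storage in the vacuole. UF3GT is also named UGT79B1, and its enzyme adds xylose to the glucose at position 3 of the pigment, although the annotated name calls it a flavonoid 3-O-glucosyltransferase. The enzyme of 5GT adds glucose at position 5. In Arabidopsis the late genes of this branch are switched on by complexes of MYB, bHLH and WD40 proteins.

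Of the 3 genes, DFR was higher in the overexpressors, and UF3GT and 5GT had higher mean signals without passing the test. DFR, the branch-point gene, had linear signals of 1225 and 1285 in the overexpressors, against 701 and 736 in wild type. Both overexpressor values lay well above both wild-type values, and the arrays of each group lay close together. Its log2 signal averaged 10.29 ± 0.05 in overexpressors, against 9.49 ± 0.05 in wild type (± SD, n = 2 per group), a log2 fold change of 0.81 (SE 0.10). That is a 1.75-fold rise with a 95% interval of 1.49 to 2.06, and it passed in limma (adjusted p = 0.00356 over all 22746 probe sets, threshold 0.05).

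For UF3GT, the xylosyltransferase gene, the linear signals were 531 and 503 in the overexpressors, against 427 and 403 in wild type. The groups did not overlap here either, but the gap was narrower. Its log2 signal averaged 9.01 ± 0.05 in overexpressors, against 8.70 ± 0.06 in wild type (± SD, n = 2 per group). The log2 fold change of 0.32 (SE 0.10), 1.25-fold with an interval of 1.06 to 1.47, did not pass in limma (adjusted p = 0.0635, unadjusted p = 0.0170).

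5GT, the gene of the glucosyltransferase acting at position 5, had linear signals of 524 and 562 in the overexpressors, against 482 and 443 in wild type. The lowest overexpressor value was above the highest wild-type value, by 0.121 on the log2 scale, about as much as the 0.123 between the wild-type arrays. Its log2 signal averaged 9.08 ± 0.07 in overexpressors, against 8.85 ± 0.09 in wild type (± SD, n = 2 per group). The log2 fold change of 0.23 (SE 0.10), 1.17-fold with an interval of 0.988 to 1.40, did not pass in limma (adjusted p = 0.163, unadjusted p = 0.0634).

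**Figure D1:**
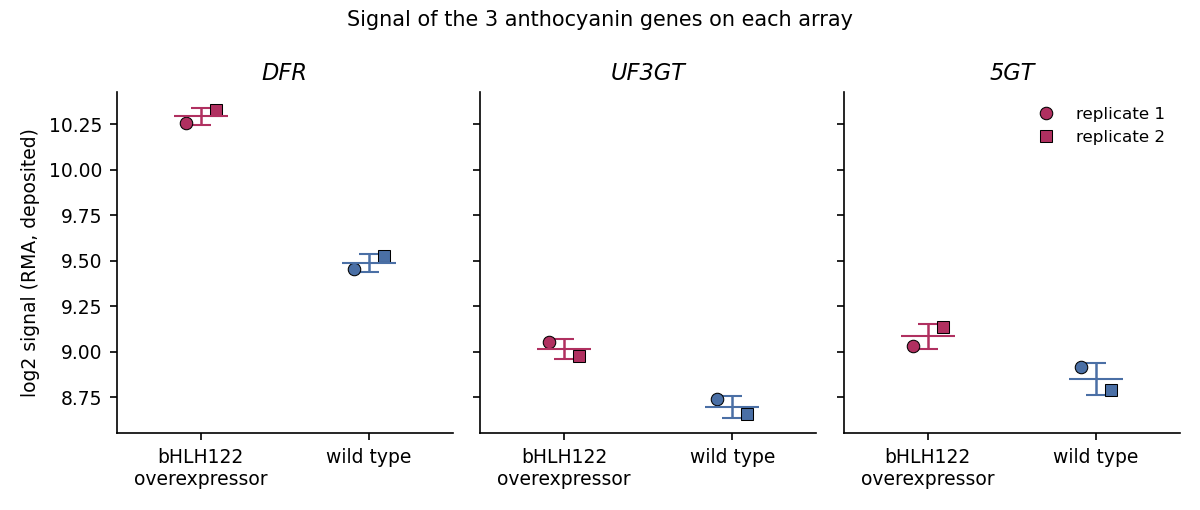
Log2 signal of DFR, UF3GT and 5GT on each array, overexpressor left and wild type right in each panel. Points are single arrays, with circles for replicate 1 and squares for replicate 2; horizontal bars are group means and whiskers 1 SD (n = 2). The overexpressor points lie above the wild-type points in all 3 panels, with the widest gap for DFR (mean log2 signal 10.29 against 9.49).

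Thus 1 of the 3 genes passed, where 12.2% of all probe sets were called higher, 11.8% were called lower and 24.0% were called in either direction. All 3 had both overexpressor arrays above both wild-type arrays, as did 29.1% of all probe sets, while 32.1% had both below. A log2 fold change at least as high as that of DFR was found for 766 probe sets (3.37%), as high as that of UF3GT for 3732 (16.4%) and as high as that of 5GT for 4856 (21.3%). DFR therefore lay in the upper tail of the whole array, and the glycosyltransferase genes closer to its middle.

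Among the 3 genes, the size of the difference was ordered DFR, UF3GT, 5GT. That order did not extend to other measured steps of the pathway. UGT78D2, whose enzyme acts before that of UF3GT, had a log2 fold change of 0.12, and 5MAT, acting after 5GT, had 0.41. Over the 4 pairings of an overexpressor with a wild-type array, the log2 difference ran from 0.74 to 0.87 for DFR, from 0.24 to 0.40 for UF3GT and from 0.12 to 0.34 for 5GT. The range of DFR did not meet the others, and those of UF3GT and 5GT overlapped. The log2 fold change of DFR exceeded that of UF3GT by 0.49 and that of 5GT by 0.57. By an exact two-sided permutation test over the 4 arrays each of these gave p = 0.333, the smallest p that 2 against 2 arrays allow (adjusted over the 3 pairs, p = 0.5). UF3GT exceeded 5GT by 0.08 (exact permutation p = 0.667, adjusted p = 0.667), with a difference of -0.0036 when overexpressor replicate 1 was left out.

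DFR passed with each array left out in turn, at log2 fold changes of 0.77 to 0.84. It did not pass with ordinary statistics (adjusted p = 0.102), which share no variance between probe sets and called 5 probe sets on the whole array. UF3GT lay near the threshold. It passed in limma under 7 of 15 other settings, among them quantile normalization (log2 fold change 0.38, adjusted p = 0.0351) and an intensity trend together with robust hyperparameters (adjusted p = 0.0103), and under none of the settings that left out an array (0.27 to 0.36). 5GT passed in 2 of 15. Spike-in scaling, whose p-values are not on a par with the rest, is among the passes of both genes. Fold change on these arrays went with gene length (r = 0.332 across 13367 nuclear probe sets, which are not independent replicates), shorter genes being lower in the overexpressors, and the 3 genes span 1648 to 1940 bp in the TAIR10.1 table, introns included. With that trend removed from the nuclear probe sets all 3 passed, DFR at 0.94 (adjusted p = 0.00188), UF3GT at 0.50 (adjusted p = 0.0188) and 5GT at 0.42 (adjusted p = 0.0424).

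**Figure D2:**
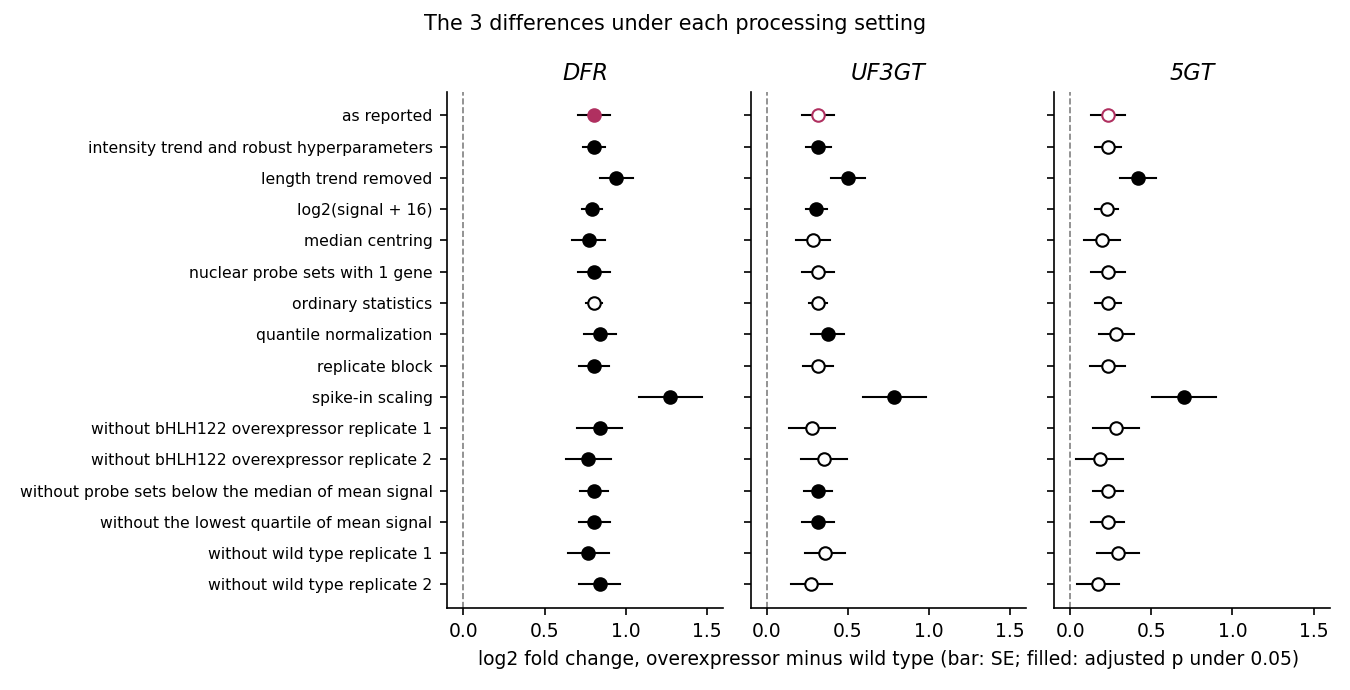
Log2 fold change (overexpressor minus wild type) of DFR, UF3GT and 5GT under each processing setting, with 1 row per setting and bars of 1 SE. Filled points have a limma adjusted p under 0.05 (for ordinary statistics, without sharing of variance). DFR is filled in all rows but that of ordinary statistics, and all values of the 3 genes lie above 0, from 0.17 for 5GT without wild type replicate 2 to 1.28 for DFR with spike-in scaling.

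Control RNA moved with genotype. All 24 probe sets for poly-A controls, added before labelling, and all 18 for hybridization controls had lower means in the overexpressors, by a median of 0.59 and 0.25 on the log2 scale. Scaling the arrays to these 42 probe sets added 0.47 to every fold change, which put the median of all probe sets at 0.45, against -0.02 as deposited. The 3 genes then had log2 fold changes of 1.28, 0.79 and 0.70, and calls split into 12333 higher and 510 lower, against 2776 and 2684. That fit gave each of the 3 genes the same SE of 0.196, so their own spread did not enter. Its p-values and calls are therefore not on a par with those of the other fits. The part of the controls in the differences of DFR, UF3GT and 5GT was not tested. Probe sets for actin, GAPDH and ubiquitin gave median log2 differences of 0.0038 at the 3 prime and -0.01 at the 5 prime end of the transcript, a comparison that bears on RNA integrity. Single probe sets ran from -0.15 to 0.15 at the 3 prime end and from -0.20 to 0.27 at the 5 prime end (6 each).

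The shoot label was set against marker genes. The 4 measured leaf genes (of 8 listed) had log2 signals of 11.9 to 14.0, and the 2 measured root genes (of 7), EXPA7 and EXPA18, had 3.43 to 4.58, where the lower quartile of an array was 3.46 to 3.54. None of the 6 flower and seed genes is named alone on a probe set in the annotation used, so these tissues were not checked. Among the leaf genes PRK (0.69), SBPASE (0.44) and RCA (0.34) rose and LHCB4.1 (0.11) did not pass. SBPASE and RCA did not pass in limma with any 1 array left out (adjusted p from 0.0696 to 0.0790 and from 0.111 to 0.208). In whole shoots more cells of a type and more RNA per cell cannot be told apart, and the part of tissue makeup in the rise of DFR was not tested.

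Other genes of the flavonoid pathway were taken from lists of 65 enzymes, transporters and regulators, of which 12 are named alone on a probe set in the annotation used. Of these 12, 3 rose (DFR, 5MAT and HYH), none fell and 9 did not pass in limma, beside 12.2% higher, 11.8% lower and 24.0% in either direction over all probe sets. At an unadjusted p under 0.05 there were 4 higher and 2 lower, against 4087 and 4140 of all 22746 probe sets, and with ordinary statistics 0 passed. With median centring 3 rose and 1, UGT89C1, fell, where 11.3% of all probe sets were called higher and 13.7% lower. Their median log2 fold change was 0.13, against -0.02 over all probe sets. The genotypes were apart upward for 6 and downward for 3 of the 12, beside the 29.1% and 32.1% of all probe sets given above. Without DFR, UF3GT and 5GT, 2 of 9 rose and the median was 0.06. The count of pathway calls was 5 with the length trend removed, where 8.11% of the nuclear probe sets tested were called higher and 7.61% lower. It was 2 with the replicate number as a block, where 8.25% of all probe sets were called higher and 7.63% lower. With any 1 array left out the count was lower, as was that over all probe sets.

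5MAT, whose enzyme attaches malonate to the glucose that the 5GT enzyme adds, had log2 signals of 6.52 and 6.58 in the overexpressors and 6.17 and 6.11 in wild type. Its log2 fold change was 0.41 (SE 0.10, limma adjusted p = 0.0261), and the groups did not overlap. It did not pass when any 1 array was left out (adjusted p from 0.0737 to 0.112). Together with DFR, UF3GT and 5GT it makes up the measured genes on the way to decorated anthocyanins that do not serve flavonols. These 4 had log2 fold changes from 0.23 to 0.81, where the median over all probe sets was -0.02, and UF3GT and 5GT did not pass. The grouping leaves out UGT78D2 (0.12), whose enzyme also serves flavonols, and BAN (0.06), on the way to proanthocyanidins, neither of which passed. That grouping by branch was made after the values had been seen and was not tested. No joint rise of the branch is therefore concluded from the shared sign.

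BAN encodes anthocyanidin reductase, which turns anthocyanidins toward the proanthocyanidins of the seed coat. Its log2 signals of 3.53 and 4.02 in the overexpressors and 3.85 and 3.58 in wild type overlapped and lay close to the lower quartile of the arrays (log2 fold change 0.06, SE 0.18). UGT78D2, whose enzyme puts glucose on position 3 of both flavonols and anthocyanidins and so precedes the UF3GT step, had log2 signals of 9.41 and 9.36 in the overexpressors and 9.32 and 9.21 in wild type. The log2 fold change of 0.12 (SE 0.10) did not pass (interval -0.12 to 0.36).

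The flavonol sugar transferase genes gave other values. UGT78D1, for the flavonol 3-O-rhamnosyltransferase, had a log2 fold change of 0.02 (SE 0.10), with overlapping groups. UGT89C1 (AT1G06000), for the 7-O-rhamnosyltransferase of flavonols, had log2 signals of 9.27 and 9.19 in the overexpressors and 9.59 and 9.54 in wild type, a log2 fold change of -0.34 (SE 0.10). The groups were apart, and limma's adjusted p was 0.0509. It passed as lower in 5 of 15 other settings, among them median centring (adjusted p = 0.0382) and the intensity trend with robust hyperparameters (adjusted p = 0.00478), whereas with spike-in scaling the value was 0.14 and did not pass. UGT78D3, a flavonol arabinosyltransferase gene, was near the lower quartile in both groups (3.34 and 3.17 in the overexpressors, 3.63 and 3.48 in wild type; log2 fold change -0.29, SE 0.11, limma adjusted p = 0.114). CHIL, whose protein aids the chalcone step at the head of the pathway, had -0.16 (SE 0.11) and did not pass. The spike-in scaling also put UGT78D3 (0.18) and CHIL (0.31) above 0.

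Among regulators, HYH, a bZIP factor close to the light-response factor HY5, had log2 signals of 7.48 and 7.04 in the overexpressors and 6.55 and 6.48 in wild type. It rose by 0.75 (SE 0.16, limma adjusted p = 0.0191), with a wide spread between the overexpressor arrays (SD 0.31, n = 2). It did not pass without wild type replicate 1 (adjusted p = 0.0613) or wild type replicate 2 (adjusted p = 0.0754). TRY, a single-repeat MYB that competes for the bHLH partners of the activating MYB factors, had 0.14 (SE 0.12), with overlapping groups. The MYB, bHLH and WD40 activators of the late genes, chalcone synthase, LDOX, the first steps from PAL to 4CL and the transporters are not analysed here.

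**Figure D3:**
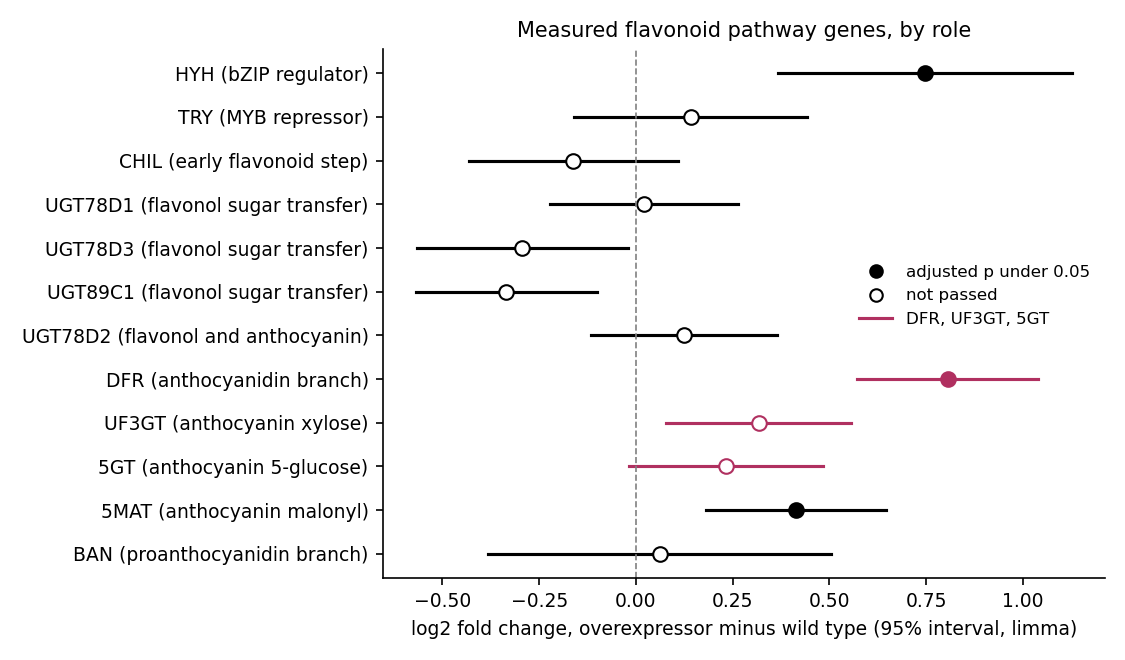
Log2 fold change (overexpressor minus wild type) of the 12 measured flavonoid pathway genes, with 95% intervals from limma. Genes run by role from regulators through the flavonol to the anthocyanin and proanthocyanidin branch; filled points passed (adjusted p under 0.05). DFR (0.81), HYH (0.75) and 5MAT (0.41) are filled, UF3GT (0.32) and 5GT (0.23) are open, and UGT78D3 (-0.29) and UGT89C1 (-0.34) lie lowest.

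UF3GT and 5GT encode members of the large UGT family, which moves sugars from UDP to small molecules. Of 47 other genes whose symbol opens with UGT, 2 rose and 4 fell, and 41 did not pass (median log2 fold change -0.02), beside 12.2% higher, 11.8% lower and 24.0% in either direction over all probe sets. Of the 47, 3 had a log2 fold change at least as high as that of UF3GT and 4 one at least as high as that of 5GT. Many of the 47 were dim, unlike UF3GT and 5GT: 19 lay above the median of mean signal over all probe sets, and of these 2 rose and 2 fell. In a fit of the probe sets above that median alone, 23.8% were called higher and 25.5% lower. That fit shares variance and adjusts p among its 11373 probe sets only. Its shares are thus not on the same footing as the calls of the 19, which come from the fit of all probe sets. The rises were UGT76E11 (0.56) and UGT74B1 (0.38), which acts in glucosinolate synthesis. The falls were UGT72E1 (-0.72), which acts on lignin precursors, UGT71C5 (-0.65), which acts on abscisic acid, UGT85A7 (-0.57) and UGT76B1 (-0.43), though with spike-in scaling none of the falls passed and UGT76B1 stood at 0.04. UGT76B1 lay near the lower quartile of the arrays, with log2 signals of 3.51 and 3.24 in the overexpressors and 3.81 and 3.80 in wild type. With log2(signal + 16) it was -0.18 and did not pass (limma adjusted p = 0.0898), and UGT85A7 passed at -0.35. With any 1 array left out, fewer of the 47 and fewer of all probe sets were called. Without overexpressor replicate 1 neither rise passed, UGT76E11 being at 0.49 and UGT74B1 at 0.33. UGT74B1 did not pass in limma with any 1 array left out (log2 fold change 0.33 to 0.43). UGT76E11 also did not pass without wild type replicate 2 (0.55). The falls moved too. UGT85A7 ran from -0.77 to -0.38 and UGT76B1 from -0.56 to -0.30, and each did not pass in some of these fits. UGT71C5 ran from -0.69 to -0.61 and UGT72E1 from -0.80 to -0.64.

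**Figure D4:**
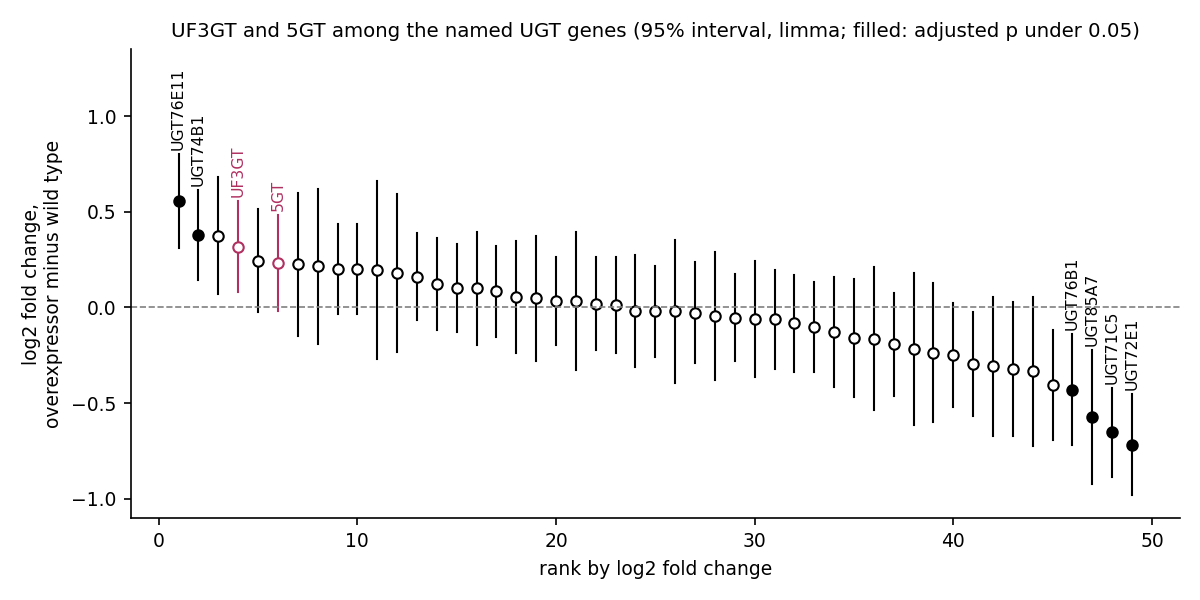
Log2 fold change (overexpressor minus wild type) of UF3GT, 5GT and the 47 UGT genes in rank order, with 95% intervals from limma. Filled points passed (adjusted p under 0.05), and UF3GT, 5GT and the genes that passed are named. UF3GT (0.32) and 5GT (0.23) stand near the left end, below UGT76E11 (0.56) and UGT74B1 (0.38).

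Likeness to the pattern of each gene was measured as the Euclidean distance between log2 signals centred on their mean over the 4 arrays. The named genes nearest to DFR were AT3G43590 (distance 0.0171), AT5G26710 (0.0406) and AT3G06980 (0.0519), with log2 fold changes of 0.81, 0.83 and 0.78. Nearest to UF3GT were AT1G11440 (0.00633), AT2G28720 (0.0171) and AT1G53050 (0.0244). Nearest to 5GT were AT1G47530 (0.0158), LPA19 (0.0217), a gene for assembly of photosystem II, and AT2G01720 (0.0242). These distances were all below the differences between arrays of a group for the 3 genes (0.07 to 0.12), so the order of the nearest genes is not resolved. UF3GT and 5GT were 0.153 apart, which made 5GT number 604 from UF3GT, where 13513 probe sets have 1 gene. DFR was 0.511 from UF3GT and 0.589 from 5GT, which made them numbers 1658 and 2253 from DFR. Counted the other way, DFR was number 8571 from UF3GT and 10749 from 5GT. With so many probe sets compared, no conclusion is drawn from the 3 anthocyanin genes not being nearest to each other.

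The genes near them on the chromosome were looked up after the values had been seen, in the order of the TAIR10.1 table. The nearest measured gene on each side was taken, which was often not the adjacent gene. The genes lying between numbered 0 for AT4G14100 and AT5G54050 and 1 for U2AF35B. They numbered 5 for AT5G42765, 6 for AT5G54090 and 15 for AT4G14160. Beside 5GT, AT4G14100 fell by 0.51 on the log2 scale (limma adjusted p = 0.0211), whereas AT4G14160 (0.08, limma adjusted p = 0.707) was not called. Beside UF3GT, AT5G54050, with log2 signals of 2.77 to 2.99, had a log2 fold change of 0.03, and AT5G54090 had 0.67 (SE 0.24, limma adjusted p = 0.0983); neither passed. Beside DFR, AT5G42765 rose by 0.43 (limma adjusted p = 0.0224) and U2AF35B, a gene for a splicing factor subunit, fell by 0.60 (limma adjusted p = 0.00809).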

How the data were processed

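RNA from 4 shoot samples was measured on Affymetrix arrays. Each deposited value is the intensity of 1 probe set on 1 array, on a linear scale. The authors used RMA, per the submitters' processing notes; no version, and no step from its log2 output back to linear values, is given in the sources used here. No background correction or normalization was added. Log2 of the deposited intensity was fitted on genotype alone by limma 3.58.1 (R 4.3.3; lmFit, eBayes, two-sided tests, 2 residual and 4.24 prior degrees of freedom). P-values were adjusted by Benjamini-Hochberg over 22746 probe sets, without the 64 controls. The arrays' median signals were 40.8 and 40.2 for the overexpressors, against 39.2 and 40.0 for wild type, and arrays of a group correlated across probe sets at r = 0.996 to 0.997; the number of arrays limits the precision.

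The platform annotation gives 1 gene for 13513 probe sets, several for 503 and none for 8730; 13436 were matched to the TAIR10.1 table by Entrez identifier. The members and lists were chosen with earlier results of these data known. Named were the 3 genes, all pathway and marker genes named alone on a probe set, up to 3 UGT genes called in each direction and UGT76B1 besides, and the 3 nearest patterns of each gene. Of the listed acyltransferase genes 2 share a probe set and are not named. The length trend was removed by lowess (span 0.5, within 4 bins of mean signal) over 13367 nuclear probe sets. The fit and the lowess step were tested on simulated data. Far fewer probe sets were changed there than were called here, and spreads were drawn from the fitted model. The simulation thus checked the code and not the calls made here. No detection calls were used, and the 3 genes had log2 signals of 8.65 to 10.3, above the upper quartile of each array (7.36 to 7.42). Same-numbered arrays are not paired in the labels.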

Additional observations from a re-analysis of the deposited data

How the results depend on the processing

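DFR, UF3GT and 5GT kept a positive log2 fold change in all 15 settings, but many of these could not change the sign. Settings that changed only the test or the probe sets tested returned the same values. Leaving out an array cannot reverse a gene whose groups do not overlap. DFR had 0.81 with adjusted p = 0.102 with ordinary statistics, and otherwise passed. UF3GT passed at 0.32 with an intensity trend and robust hyperparameters, at 0.32 without the lowest quartile of mean signal and at 0.32 without probe sets below its median, at 0.31 with log2(signal + 16), at 0.38 after quantile normalization, at 0.50 with the length trend removed and at 0.79 with spike-in scaling. 5GT passed at 0.42 with the length trend removed and at 0.70 with spike-in scaling. Spike-in scaling shifts every fold change alike. Its fit gave each of the 3 genes the same SE of 0.196, so their own spread did not enter, and its passes are not on a par with the others. The intensity trend and the filters on mean signal left UF3GT at 0.32. They changed its SE (0.0779, 0.0970 and 0.0876, against 0.0981 as reported) and, for the filters, the number of probe sets tested. For quantile normalization, log2(signal + 16) and removal of the length trend the cause was not tested. Leaving out arrays one at a time, which lends the lone array the spread of the other genotype, DFR ran from 0.77 to 0.84, UF3GT from 0.27 to 0.36 and 5GT from 0.17 to 0.29, pathway calls from 1 to 2, UGT calls from 3 to 4 and calls over all probe sets from 3318 to 3586. The 5460 calls became 2240 at an adjusted p under 0.01, 2101 after removal of the length trend, 2650 when only nuclear single-gene probe sets were tested, 5 with ordinary statistics and 12843 with spike-in scaling. Pathway calls were 5 with the length trend removed, where 8.11% of the nuclear probe sets tested were called higher and 7.61% lower. With the replicate number as a block DFR had adjusted p = 0.0211, UF3GT 0.0955 and 5GT 0.223, all probe sets gave 3612 calls, the pathway 2 and the UGT genes 3; the labels give no pairing by number, and deviations of same-numbered arrays from their group means correlated at -0.0410 across probe sets. No detection calls were used, so the dim genes BAN, UGT78D3 and UGT76B1 may lie at background.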
